A study of Mus musculus with 20 samples.

Results

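The complement system genes described here were 36 genes listed by symbol, and each matched a single row among the 37681 genes of the count tables. They comprised 8 genes of the classical pathway, 6 of the lectin pathway, 4 of the alternative pathway including the central component C3, 7 of the terminal pathway, and 11 regulators and receptors. Membership was by name, with no threshold on a measured value, in a list chosen with earlier results of these data known. A detection minimum of 5 reads in at least 5 of the 10 libraries of any table was passed by 15578 genes, and it removed none of the 36. Livers came from 10 wild-type male mice of strain C57/BL6 (given as C57/B6J in the protocol) at 12 weeks of age. Of these, 5 had been given IL-1β at 20 µg/kg (mice ILB_9577, ILB_9578, ILB_9579, ILB_9582 and ILB_9583, where ILB stands in the labels for the IL-1β group) and 5 had been given saline (mice UNT_9574, UNT_9575, UNT_9576, UNT_9580 and UNT_9584, called untreated, or UNT), and tissue was taken after 4 hours. Aliquots of the same liver RNA were sequenced on Illumina and on Ion Torrent, which gave 20 libraries, and the reads were aligned with GSNAP, STAR, or STAR + Bowtie2, so that 6 tables resulted. For these genes the comparisons ask which of them changed with IL-1β in the liver, and whether the change differed between the platforms.

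Complement is a cascade of plasma proteins, made largely by hepatocytes, in which proteases activate one another in sequence. The classical pathway starts when C1q binds antibody or a surface, the lectin pathway when mannose-binding lectins, ficolins or collectins bind carbohydrate, and the alternative pathway through spontaneous turnover of C3. All of them meet at the cleavage of C3 and then of C5, after which the terminal components assemble into a pore in the target membrane. Fluid-phase and membrane-bound regulators limit each step, and cellular receptors read the released peptides C3a and C5a. Several complement proteins are known as acute phase reactants of the liver.

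RefSeq promoter windows on GRCm38.p6, reaching from 250 bases before to 50 bases after the start of the gene, were matched to 27 of the 36 genes. The C/EBP core TTGCNNAA, read on both strands, occurred in 5 of them (C1ra, C1rl, C3, C9 and Cpn2) and in 10.8% of all 32851 promoters of this length. The STAT element TTCNNNGAA occurred in 7 (C1ra, C7, C8a, Colec11, Cpn2, Masp2 and Vtn) and in 8.30% of all promoters. The kappa-B consensus was found in C1qc alone, and in 4.51% of all promoters. These are matches of letters, and no binding was measured here. The upstream stretches of 3 genes are shown because these genes hold the same core and moved in different directions with IL-1β, C3 upward and C9 and Cpn2 downward. Capitals mark the C/EBP core and, in Cpn2, also the STAT element downstream of it. The C3 stretch is chr17:57228137-57228286 on the minus strand and ends at the base before the start. The C9 stretch is chr15:6445196-6445255 on the plus strand, and its first base lies 150 bases before the start. The Cpn2 stretch is chr16:30267583-30267662 on the minus strand, and its first base lies 130 bases before the start.
C3: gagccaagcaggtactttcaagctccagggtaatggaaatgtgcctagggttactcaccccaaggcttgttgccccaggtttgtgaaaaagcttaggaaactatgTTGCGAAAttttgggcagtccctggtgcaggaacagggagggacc
C9: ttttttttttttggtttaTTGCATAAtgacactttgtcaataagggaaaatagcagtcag
Cpn2: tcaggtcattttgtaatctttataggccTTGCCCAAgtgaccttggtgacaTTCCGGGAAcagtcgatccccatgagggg

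Library totals ranged from 10568530 to 12008799 counts over the Illumina tables and from 12199528 to 16439683 over those of Ion Torrent. Levels are given as CPM, counts scaled to a common library size with TMM factors, and effects as log2 fold changes of IL-1β over untreated with their standard errors. A gene was called when edgeR's quasi-likelihood test gave a Benjamini-Hochberg adjusted p below 0.05 over all 15578 genes of a table. Unless another table is named, Illumina and Ion Torrent values are those of the GSNAP tables. Over expressed genes, the Illumina and Ion Torrent libraries of a mouse deviated together from their group means (r from 0.562 to 0.728 for 9 mice), but less so for untreated mouse UNT_9584 (r from 0.199 to 0.249). Counts of calls are therefore also given without that mouse. The hepatocyte marker Alb was at a mean of 81016 CPM in untreated and 56002 CPM in IL-1β livers, and the sum of 7 hepatocyte markers was 68111 to 75714 CPM with IL-1β and 86234 to 105533 CPM without (exact permutation test, adjusted p = 0.0139 over 7 marker lists). Of these 7 markers 3 were lower and 1 was higher, and the part of this shift in the complement values was not tested. Endothelial markers (2 of 6 higher, 2 lower) summed to 91.2 to 150 CPM with IL-1β and 117 to 176 CPM without, and lymphocyte markers (3 of 5 tested lower) to 0.855 to 1.59 CPM with IL-1β and 1.93 to 4.36 CPM without. In such bulk tissue, fewer cells of a type and less RNA per cell cannot be told apart.

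With IL-1β, C3, C4b and Cfb rose, as did Mbl1, C5ar1 and the regulators C4bp, Serping1, Vtn and Clu. C1s, C1rl, C2, Masp1 and Masp2 fell, as did Colec11, the terminal genes C8a, C8b and C9, and Cfi, Cd59a and Cpn2. These 9 genes were called higher, and these 12 lower, in all 6 tables, against 17.3% and 17.6% of all genes tested. The call of 5 genes (Cfp, Hc, C6, C7 and C8g) differed between tables, and 10 genes were called in none (C1qa, C1qb, C1qc, C1ra, Mbl2, Fcna, Cfd, Cd55, Cpn1 and C3ar1). Of the 36 genes, 25 were called in the Illumina GSNAP table, where 47.5% of all genes tested were. Of these, 9 were higher and 16 lower, against 23.7% and 23.9% of all genes. The median absolute log2 fold change was 0.43 over the list and 0.46 over all genes tested.

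On Ion Torrent with GSNAP, 23 of the 36 were called, 9 higher and 14 lower, where 46.4% of all genes were called, 22.5% higher and 23.9% lower. With STAR, 25 were called on Illumina and 21 on Ion Torrent, against 45.7% and 42.1% of all genes. With STAR + Bowtie2, 25 and 22 were called, against 47.4% and 46.7%. Without TMM scaling the median log2 fold change of all genes moved from 0 to -0.11 in both GSNAP tables, and the split of the list became 9 higher and 17 lower on Illumina and 7 higher and 17 lower on Ion Torrent. Of all 15578 genes, 2874 were then called higher and 4524 lower on Illumina, and 2795 and 4438 on Ion Torrent. Without mouse UNT_9584 the split of the list was 9 higher and 15 lower on Illumina, and 8 higher and 12 lower on Ion Torrent. The share of all genes called without that mouse is not given here. Of the genes called in all 6 tables, 7 of the 9 higher and 6 of the 12 lower kept their call and direction in all 102 fits, which combine 6 tables with 17 settings. The share of all genes that kept their call over these fits was not computed, so whether this count is particular to the list is not known. Called genes of both directions occurred among the classical, the lectin, and the regulator and receptor genes, whereas calls among the alternative pathway genes were higher and calls among the terminal genes were lower.

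**Figure D1:**
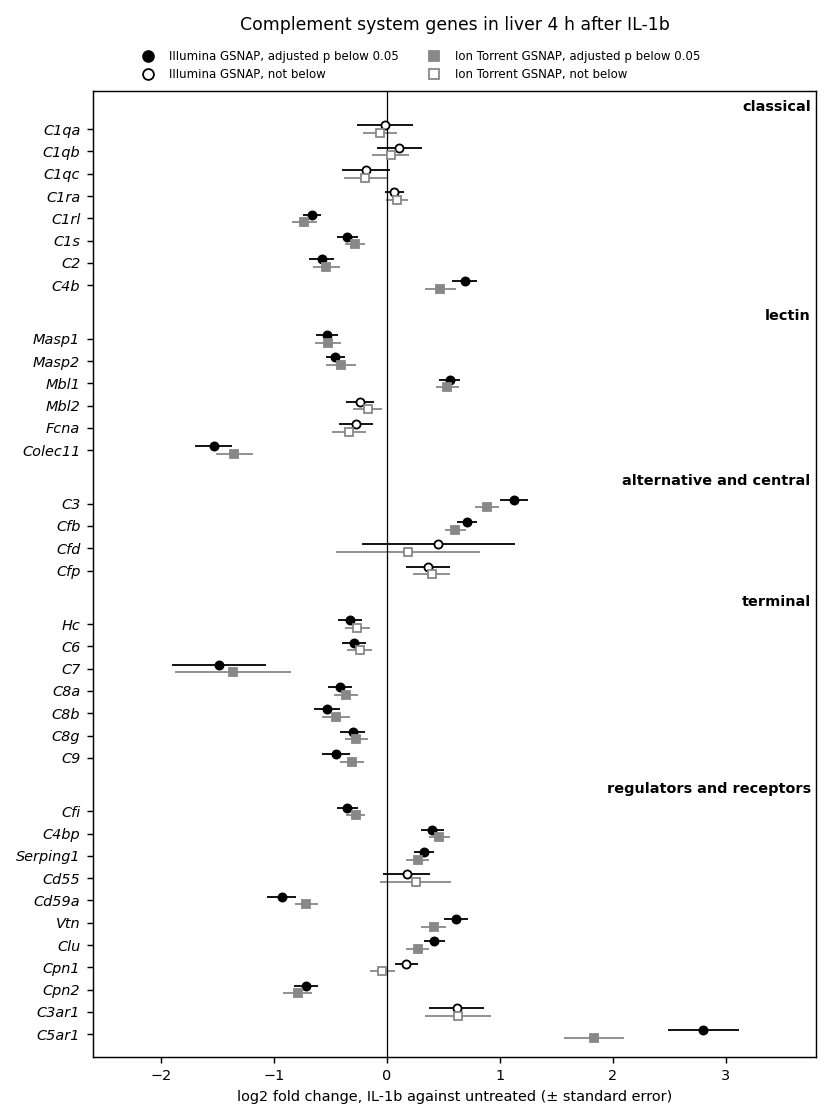
Log2 fold change of each of the 36 genes, IL-1β over untreated, with its standard error, on the x axis, and genes grouped by role on the y axis. Both platforms are shown as aligned with GSNAP, from 5 against 5 mice, and filled symbols have an adjusted p below 0.05. C5ar1 (2.801 on Illumina) lies farthest to the right, and every gene of the terminal pathway lies to the left of 0.

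Levels were compared between genes per length, as CPM per kb of exonic length in untreated mice on Illumina. C3 was at 1439 ± 149 CPM per kb (SD, n = 5), above Vtn at 999 ± 98.4 CPM per kb without overlap. On Ion Torrent the order of the means was turned, with Vtn at 1641 and C3 at 1538 CPM per kb. There the values of the mice overlapped, and C3 was above Vtn in mice UNT_9574 and UNT_9576. The next genes on Illumina were Clu at 393 ± 23.04 and Serping1 at 361 ± 26.3 CPM per kb. Serping1 and Cfi (342 ± 34.1 CPM per kb) differed by less than their spread, as did C9 (296 ± 52.5) and C8a (286 ± 30.9). At the other end were the receptors C3ar1 at 0.484 ± 0.172 and C5ar1 at 0.221 ± 0.0953 CPM per kb, with the terminal component C7 between them at 0.427 ± 0.201 CPM per kb. The other 6 terminal genes lay between 106 and 296 CPM per kb.

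**Figure D2:**
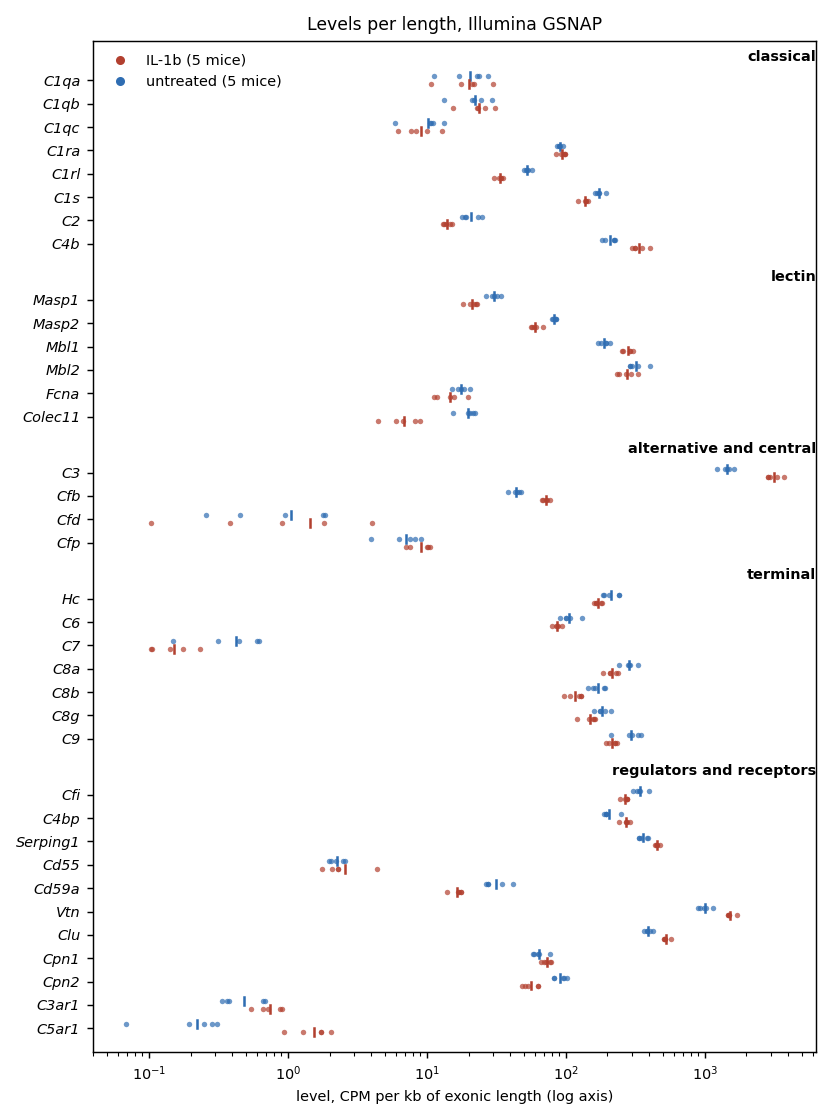
Level of each gene in each mouse as CPM per kb of exonic length on a log axis (Illumina GSNAP), with genes grouped by role. Points are single mice of the untreated and IL-1β groups (5 each) and ticks are group means. C3 is the highest gene in both groups, and C7, C3ar1 and C5ar1 are near the lower end.

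All 36 genes together took 2.25% ± 0.125 (SD, n = 5) of the counts in untreated and 3.002% ± 0.193 in IL-1β livers. C3 by itself accounted for 0.772% ± 0.0982 and 1.54% ± 0.176. The remaining genes took 1.47% ± 0.07404 in untreated and 1.46% ± 0.0556 in IL-1β livers, a difference smaller than the spread between mice. In Ion Torrent data the share without C3 was 1.67% ± 0.0583 in untreated and 1.68% ± 0.115 in IL-1β livers.

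C3, the component on which all pathways meet (chr17:57343397-57367559 on mm9, the build of all positions from here on), had the highest counts of the list. On Illumina it reached 15125, 18970, 14752, 14647 and 16949 CPM in the IL-1β mice ILB_9577, ILB_9578, ILB_9579, ILB_9582 and ILB_9583. In the untreated mice UNT_9574, UNT_9575, UNT_9576, UNT_9580 and UNT_9584 it was 7632, 7479, 8387, 6285 and 7150 CPM, and values of other genes are given in the same order of mice. Every IL-1β mouse was above every untreated mouse, and the log2 fold change was 1.12 ± 0.13 (SE), a 2.18-fold rise (edgeR, adjusted p = 4.92e-06). With Ion Torrent the IL-1β mice gave 13905, 15752, 13173, 13832 and 16425 CPM. The untreated mice gave 8131, 8050, 8410, 6901 and 7986 CPM there. The groups again did not overlap, with a log2 fold change of 0.89 ± 0.11 (adjusted p = 6.56e-06).

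Cfb encodes factor B, the protease of the alternative C3 convertase. It rose by 0.71 ± 0.086 on the log2 scale on Illumina, from 124 ± 9.78 to 203 ± 10.3 CPM (SD, n = 5, edgeR adjusted p = 1.15e-05). On Ion Torrent its log2 fold change was 0.60 ± 0.094. Cfp encodes properdin, which stabilises that convertase and is made mainly by leukocytes (chrX:20502580-20508681). Its levels on Illumina were 18.3, 17.7, 13.1, 12.3 and 17.4 CPM with IL-1β. They were 15.8, 11.04, 13.2, 14.2 and 6.94 CPM without. The groups overlapped, and the log2 fold change of 0.36 ± 0.19 was not called (adjusted p = 0.137). On Ion Torrent Cfp was at 21.3, 20.1, 15.01, 13.01 and 19.9 CPM against 18.2, 11.6, 12.02, 13.2 and 12.6 CPM, also with overlap (log2 fold change 0.40 ± 0.16, adjusted p = 0.0564). It was called there without any 1 of mice ILB_9579, ILB_9582 and UNT_9574, with adjusted p from 0.0122 to 0.0447. Of the 6 tables, only Illumina STAR called it (edgeR adjusted p = 0.0451), and that call was lost in 10 of 16 alternatives. Leaving out 1 mouse lost it in 7 of 10 cases, with adjusted p from 0.0304 to 0.0995.

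Cfd encodes factor D, also known as adipsin, which cleaves factor B and is best known from adipocytes. Relative to its mean, its level varied more between mice of a group than that of any other gene of the list on Illumina, from 0.09501 to 3.73 CPM among IL-1β mice and from 0.238 to 1.702 CPM among untreated mice. Among IL-1β mice the extremes were the same on both platforms, with mouse ILB_9582 at 3.73 CPM on Illumina and 6.43 CPM on Ion Torrent, and mouse ILB_9583 at 0.09501 and 0.225 CPM. The log2 fold change was 0.46 ± 0.67 and not called, and a change of about that size was not detectable at this spread. The adipocyte markers Adipoq, Plin1, Lep and Retn did not reach the detection minimum, with at most 2 counts in any Illumina GSNAP library. The fifth, Adrb3, was lower with IL-1β (0.781 against 4.99 CPM, edgeR adjusted p = 3.29e-06).

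Among the classical genes, C1qa, C1qb and C1qc lie side by side on chromosome 4 and encode the chains of C1q. They were called in no table, with log2 fold changes of -0.017 ± 0.25, 0.11 ± 0.20 and -0.18 ± 0.21 on Illumina. Their levels ran from 11.1 to 33.9 CPM over the IL-1β mice and from 11.3 to 32.01 CPM over the untreated mice. C1q is made by macrophages, and of 7 Kupffer cell and macrophage markers 3 were lower and 1 was higher. Their summed level was 70.5 to 163 CPM with IL-1β and 123 to 213 CPM without (two-sided exact permutation test, adjusted p = 0.167). In that list Clec4f fell by 0.61 and Marco rose by 2.19 on the log2 scale. The part of macrophages in the C1q values was not tested.

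The proteases C1r and C1s circulate together in the C1 complex. C1ra was at 284 ± 17.4 CPM with IL-1β and 272 ± 9.59 CPM without, and it was called in no table. C1s fell from 610 ± 40.9 to 479 ± 29.9 CPM (log2 fold change -0.35 ± 0.090, edgeR adjusted p = 0.00515). On Ion Torrent the C1s change was -0.28 ± 0.089 (adjusted p = 0.0177), and this call was lost without mouse UNT_9580 (adjusted p = 0.0543). C1rl, a C1r-like protease, fell by 0.66 ± 0.080 on the log2 scale, from 160 ± 7.52 to 101 ± 5.45 CPM. C1ra shares 97.9% of 2169 aligned bases with C1rb, and C1s shares 95.5% of 2907 with Gm5077, so how their reads were divided is uncertain. C1s also overlaps Gm16567 on the opposite strand over 16.5% of its exonic bases.

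C4 and C2, the substrates of C1s, moved in opposite directions. C4b rose from 1194 ± 116 to 1923 ± 238 CPM on Illumina (log2 fold change 0.69 ± 0.11, edgeR adjusted p = 0.000169). C2 fell from 84.8 ± 12.96 to 56.8 ± 3.71 CPM (log2 fold change -0.58 ± 0.11, adjusted p = 0.000473). In Ion Torrent data the changes were 0.47 ± 0.13 for C4b and -0.53 ± 0.12 for C2. C4a, a close relative of C4b outside the list, was also called higher in all 6 tables (log2 fold change 0.94 ± 0.28 on Illumina). How reads were shared between C4a and C4b is uncertain.

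C2 and Cfb encode related proteases with like roles in their convertases, and the genes are neighbours on chromosome 17. On their shared minus strand, C2 ends 85 bases before Cfb starts. A readthrough gene of the annotation, Gm20547, covers 79.5% of the exonic bases of Cfb and 40.8% of those of C2, and how it affected the counts was not analysed here. Cfb rose and C2 fell in all 6 tables. The log2 ratio of Cfb to C2 counts in a library was 1.67 to 2.04 in the IL-1β mice and 0.36 to 0.77 in the untreated mice on Illumina.

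Both enzymes of the lectin pathway fell. Masp1 went from 185 ± 17.003 to 128 ± 11.6 CPM (log2 fold change -0.53 ± 0.096, edgeR adjusted p = 0.000408). Masp2, whose product cleaves C4 and C2, went from 274 ± 7.71 to 200 ± 16.1 CPM (log2 fold change -0.45 ± 0.085, adjusted p = 0.000469). Over 54.9% of its exonic bases Masp2 overlaps Tardbp on the opposite strand. Both kits kept strand, but whether counting used it is not given in the sources used here. With Ion Torrent the changes were -0.52 ± 0.12 and -0.41 ± 0.13, and the Masp2 call was lost there without mouse ILB_9579 (adjusted p = 0.0523).

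Among the recognition molecules of the lectin pathway, Mbl1, a mannose-binding lectin, rose from 175 ± 13.3 to 258 ± 21.3 CPM (log2 fold change 0.56 ± 0.092, edgeR adjusted p = 0.000174). Mbl2, the other mannose-binding lectin, was at 302 ± 44.8 CPM with IL-1β and 356 ± 54.1 CPM without, and was not called (log2 fold change -0.24 ± 0.13, adjusted p = 0.136). Without TMM scaling Mbl2 was called lower on Illumina (log2 fold change -0.36, adjusted p = 0.0168), and so it was without mouse ILB_9579 (adjusted p = 0.0479). Fcna, a ficolin, was at 20.4 ± 4.81 against 24.6 ± 2.84 CPM and was called in no table. Without mouse ILB_9578 Fcna was called lower on Illumina (adjusted p = 0.0173) and on Ion Torrent (adjusted p = 0.00455).

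Colec11 encodes collectin-11 and lies at chr12:29279038-29308155. It was at 12.3, 6.12, 11.3, 9.33 and 8.36 CPM in the IL-1β mice on Illumina. The untreated mice had 29.6, 30.7, 28.1, 27.4 and 21.4 CPM. No value of one group reached the other, and the log2 fold change was -1.53 ± 0.17 (edgeR, adjusted p = 3.87e-06). On Ion Torrent the levels were 15.6, 6.97, 11.1, 10.9 and 11.9 CPM against 33.8, 29.6, 27.7, 27.4 and 25.6 CPM. Mouse ILB_9578 was the lowest on both platforms, and the change was -1.35 ± 0.17 (adjusted p = 9.52e-06). The summed stellate cell and fibroblast markers (2 of 5 lower) were 178 to 262 CPM with IL-1β and 245 to 318 CPM without on Illumina (exact permutation test, adjusted p = 0.0222), and on Ion Torrent the adjusted p was 0.167. Their part in the Colec11 values was not tested.

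**Figure D3:**
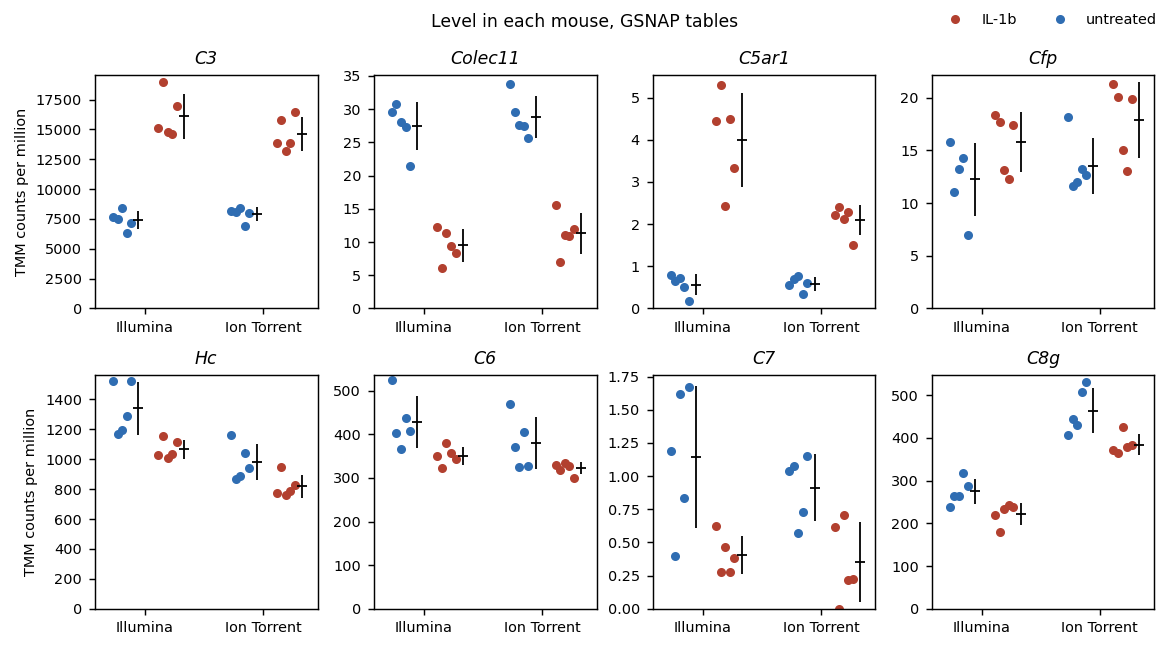
CPM in each mouse for 8 genes in the GSNAP tables of both platforms, with the mean and SD of 5 mice beside the points of each group. The groups separate on both platforms for C3, Colec11 and C5ar1, and they overlap on both platforms for Cfp, C6, C7 and C8g and on Ion Torrent alone for Hc.

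The terminal pathway had no gene with a higher call in any of the 6 tables. All 7 of its genes were called lower in the Illumina GSNAP table and 5 of the 7 in the Ion Torrent GSNAP table. Of all genes tested, 23.9% were called lower with GSNAP on each platform. With STAR, 6 of the 7 terminal genes were called lower on Illumina and 3 on Ion Torrent. With STAR + Bowtie2 these counts were 7 and 4. C8a and C8b, which encode the alpha and beta chains of C8, fell by 0.41 ± 0.11 and 0.53 ± 0.12 on the log2 scale on Illumina. C9, the pore-forming component, fell from 754 ± 134 to 553 ± 40.3 CPM (log2 fold change -0.45 ± 0.13, edgeR adjusted p = 0.00839). In Ion Torrent data the C9 change of -0.31 ± 0.11 was no longer called without mouse UNT_9574 (adjusted p = 0.0707) or without mouse UNT_9580 (adjusted p = 0.0625).

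Hc encodes C5 (chr2:34838851-34916958). Its Illumina levels were 1028, 1152, 1005, 1033 and 1116 CPM with IL-1β and 1525, 1169, 1192, 1285 and 1523 CPM without. The IL-1β mice were all below the untreated mice, with mouse ILB_9578 close to mouse UNT_9575, and the log2 fold change was -0.33 ± 0.11 (edgeR, adjusted p = 0.0207). With Ion Torrent the levels were 771, 948, 760, 786 and 826 CPM against 1161, 867, 890, 1039 and 943 CPM. There mouse ILB_9578 lay above 3 untreated mice, and the change of -0.26 ± 0.11 was not called (adjusted p = 0.0591). It was called there without any 1 of mice ILB_9578, UNT_9575 and UNT_9576 (adjusted p from 0.0255 to 0.0481), and also by DESeq2 (adjusted p = 0.04797) and limma-voom (adjusted p = 0.0485). Hc was called with each aligner on Illumina and with none on Ion Torrent. The difference of its log2 fold changes, Ion Torrent minus Illumina, was 0.057 ± 0.072 with GSNAP (edgeR interaction of platform and treatment, unadjusted p = 0.435).

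C6, which joins C5b in the nascent pore complex (chr15:4677175-4765456), was likewise called in the Illumina tables alone. On Illumina it was at 350, 322, 381, 357 and 344 CPM with IL-1β and at 525, 404, 366, 437 and 407 CPM without. Mouse ILB_9579 exceeded the lowest untreated mouse, UNT_9576, and the log2 fold change was -0.29 ± 0.10 (edgeR, adjusted p = 0.03504). This call was lost without any 1 of mice ILB_9577, ILB_9578, ILB_9583, UNT_9574 and UNT_9580, with adjusted p from 0.05302 to 0.0752. On Ion Torrent the levels were 329, 318, 334, 328 and 300 CPM against 469, 372, 326, 406 and 328 CPM (log2 fold change -0.24 ± 0.11, adjusted p = 0.0836), and C6 was called there without mouse UNT_9576 (adjusted p = 0.0451). For C6 the difference of log2 fold changes, Ion Torrent minus Illumina, was 0.045 ± 0.068 with GSNAP (edgeR interaction of platform and treatment, unadjusted p = 0.510).

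C7 lies near C6 on the same chromosome (chr15:4938762-5013740), but its counts were far lower. On Illumina the libraries held 7, 3, 5, 3 and 4 reads of it with IL-1β and 15, 5, 20, 10 and 19 without. Levels were 0.623, 0.278, 0.468, 0.280004 and 0.3801 CPM with IL-1β and 1.19, 0.40004, 1.62, 0.837 and 1.67 CPM without. Mouse UNT_9575 was the only untreated mouse within the IL-1β range, and the log2 fold change was -1.48 ± 0.41 (edgeR, adjusted p = 0.00858). On Ion Torrent mouse ILB_9578 had no read of C7, and the levels were 0.6198, 0, 0.708, 0.214 and 0.225 CPM with IL-1β against 1.04, 1.08, 0.5696, 0.728 and 1.15 CPM. The change of -1.36 ± 0.51 was called (adjusted p = 0.0402), but the call was lost without any 1 of mice ILB_9578, ILB_9582, ILB_9583, UNT_9574, UNT_9575 and UNT_9584, with adjusted p from 0.0566 to 0.0888. C7 was not called in the Illumina STAR, Ion Torrent STAR and Ion Torrent STAR + Bowtie2 tables.

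C8g encodes the gamma chain of C8 (chr2:25354171-25357239). It was at 219, 180, 235, 243 and 239 CPM with IL-1β and at 239, 265, 263, 319 and 288 CPM without on Illumina. The groups overlapped through mice ILB_9582 and UNT_9574, and the log2 fold change was -0.30 ± 0.11 (edgeR, adjusted p = 0.03197). The Illumina call was lost without any 1 of mice ILB_9577, ILB_9578, UNT_9580 and UNT_9584, with adjusted p from 0.0526 to 0.0817. In Ion Torrent data the levels were 372, 365, 425, 379 and 382 CPM against 407, 445, 430, 508 and 530 CPM (log2 fold change -0.27 ± 0.0995, adjusted p = 0.03599), and leaving out any 1 of mice ILB_9577, ILB_9578, ILB_9582, ILB_9583, UNT_9580 and UNT_9584 lost the call (adjusted p from 0.0543 to 0.1004). Of the 6 tables, Ion Torrent STAR did not call it (adjusted p = 0.0604).

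**Figure D4:**
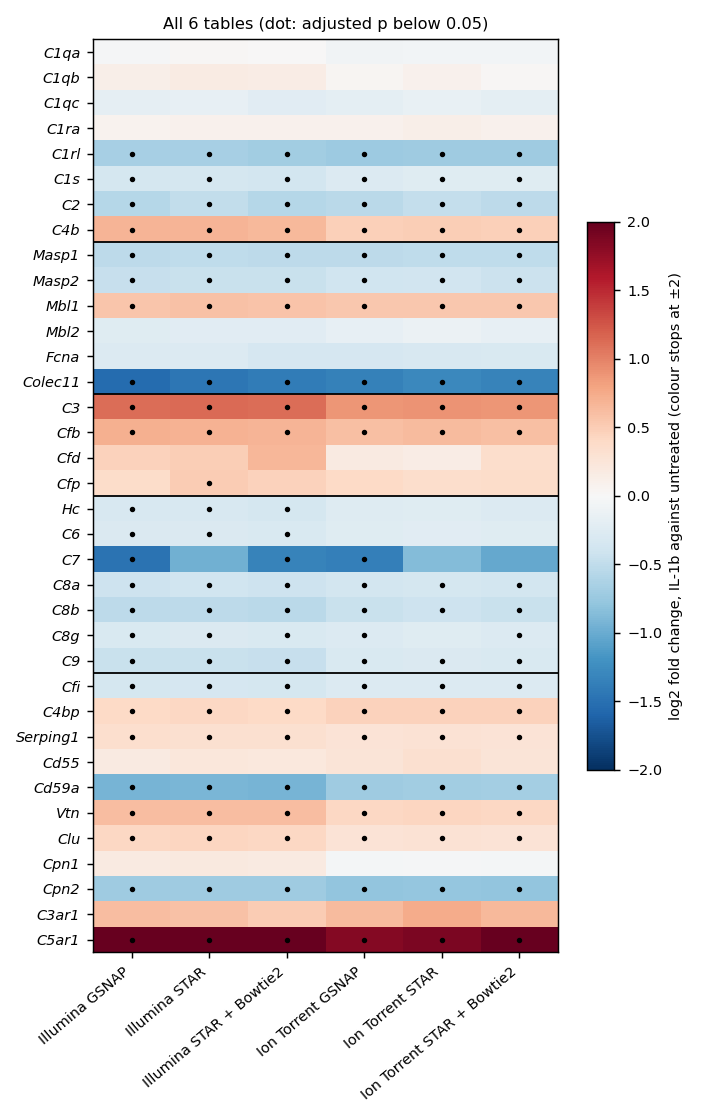
Log2 fold change of the 36 genes (y axis, in the order of roles, with lines between roles) in the 6 tables of platform and aligner (x axis). Colour gives the fold change and a dot an adjusted p below 0.05. The 9 genes higher and 12 genes lower in all 6 tables show as full rows of dots, and the dots of Hc and C6 are on Illumina alone.

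Regulators of the early steps went both ways. C4bp, a cofactor for cleavage of C4b, rose by 0.40 ± 0.10 on the log2 scale, from 627 ± 79.3 to 829 ± 52.05 CPM (edgeR, adjusted p = 0.00498). Serping1, which encodes the C1 inhibitor, rose by 0.33 ± 0.090, from 839 ± 61.2 to 1055 ± 32.1 CPM (adjusted p = 0.00698). Cfi, the protease that uses such cofactors, fell by 0.35 ± 0.095, from 709 ± 70.7 to 557 ± 26.1 CPM (adjusted p = 0.00715). With Ion Torrent the Serping1 change was 0.27 ± 0.10 (adjusted p = 0.0425), and leaving out any 1 of mice ILB_9577, ILB_9579, ILB_9582, ILB_9583, UNT_9574, UNT_9575, UNT_9576 and UNT_9580 lost the call, with adjusted p from 0.05098 to 0.118. Without TMM scaling Serping1 was at 0.17 there (adjusted p = 0.151). The Cfi call on Ion Torrent (log2 fold change -0.28 ± 0.087) was lost without mouse UNT_9580 (adjusted p = 0.05198).

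Among the regulators of the terminal step, the fluid-phase proteins rose and Cd59a fell. Vtn, vitronectin, rose by 0.61 ± 0.11 on the log2 scale, from 2028 ± 200 to 3105 ± 221 CPM. Clu, clusterin, rose by 0.42 ± 0.092, from 1353 ± 79.2 to 1809 ± 85.2 CPM. On Ion Torrent Clu rose by 0.27 ± 0.098 (edgeR, adjusted p = 0.0328), and leaving out any 1 of mice ILB_9577, ILB_9582, ILB_9583, UNT_9574, UNT_9575, UNT_9576 and UNT_9584 lost that call, with adjusted p from 0.0502 to 0.0918. Without TMM scaling Clu was at 0.16 there (adjusted p = 0.146). Cd59a, which blocks pore assembly on cells, fell by 0.93 ± 0.13 on Illumina, from 57.5 ± 11.8 to 30.2 ± 2.72 CPM (adjusted p = 4.21e-05). On Ion Torrent the Cd59a change was -0.71 ± 0.10. Cd59a shares 83.3% of 742 aligned bases with Cd59b, which was at 2.04 against 3.13 CPM. Cd55, decay-accelerating factor, was called in no table, and its log2 fold change went from 0.18 to -0.12 without mouse ILB_9578. Cd55 shares 91.6% of 1157 aligned bases with Daf2, so how its reads were divided is uncertain.

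Carboxypeptidase N removes the terminal arginine of C3a and C5a. Cpn2, its regulatory subunit, fell by 0.71 ± 0.11 on the log2 scale, from 420 ± 40.01 to 256 ± 31.1 CPM (edgeR, adjusted p = 7.25e-05). Cpn1, the catalytic subunit, was at 269 ± 19.3 CPM with IL-1β and 238 ± 28.9 CPM without, and was called in no table. Without mouse UNT_9580 Cpn1 was called higher on Illumina (log2 fold change 0.25, adjusted p = 0.0397). In Ion Torrent data the changes were -0.79 ± 0.13 for Cpn2 and -0.041 ± 0.11 for Cpn1.

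C5ar1, the receptor for C5a (chr7:16832092-16844889), had the highest log2 fold change of the 36 genes in all 6 tables, at a low level. Illumina libraries held 50, 57, 26, 48 and 35 reads with IL-1β and 10, 8, 9, 6 and 2 reads without. These are 4.45, 5.29, 2.43, 4.48 and 3.33 CPM against 0.792, 0.6401, 0.729, 0.502 and 0.176 CPM. Every IL-1β mouse was above every untreated mouse, and the log2 fold change was 2.801 ± 0.31, or 6.97-fold (edgeR, adjusted p = 4.71e-06). With Ion Torrent the levels were 2.204, 2.39, 2.12, 2.29 and 1.5005 CPM against 0.5496, 0.698, 0.759, 0.331 and 0.608 CPM. These groups did not overlap either, and the change was 1.83 ± 0.27, or 3.56-fold (adjusted p = 4.44e-05). C3ar1, the receptor for C3a, was at 3.199 ± 0.663 CPM with IL-1β and 2.08 ± 0.738 CPM without (log2 fold change 0.62 ± 0.25, adjusted p = 0.0506), and it was called in none of the 6 tables. Leaving out any 1 of mice ILB_9579, UNT_9574 and UNT_9580 brought it below the threshold on Illumina, with adjusted p from 0.0269 to 0.0375. With all mice, C3ar1 was called higher on Illumina by DESeq2 (adjusted p = 0.0454) and limma-voom (adjusted p = 0.0435). It was also called by edgeR when genes had to be detected in that table (adjusted p = 0.0470). The rank-sum test, edgeR without TMM scaling and edgeR without the detection minimum did not call it.

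C5ar1, C3ar1 and Cfp are also expressed by leukocytes such as neutrophils, whose markers rose with IL-1β. All 8 neutrophil markers that could be tested were called higher in both GSNAP tables, and their summed level was 55.5 to 119 CPM with IL-1β and 2.59 to 5.47 CPM without on Illumina (exact permutation test, adjusted p = 0.0139). The detection minimum can be met by the 5 IL-1β libraries alone, and Ngp and Ltf were at 0 CPM in untreated mice on Illumina. Which markers could be tested was therefore not independent of their direction. S100a9 was the most abundant, at 35.9 against 0.864 CPM. The other 4 markers, Ly6g, Camp, Mpo and Elane, did not reach the detection minimum, with at most 3 counts in any Illumina GSNAP library. The part of neutrophils in the values of C5ar1, C3ar1 and Cfp was not tested.

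Genes whose products work as partners were set against each other within each library, as the log2 ratio of their counts, so that library scaling cancels. The 9 pairs were chosen with the fold changes known, and with 5 mice a group the exact permutation test, two-sided, cannot give a p below 0.00794. In 6 pairs the IL-1β ratios lay wholly apart from the untreated ratios in both GSNAP tables, each with an adjusted p of 0.0119 over the 9 pairs in the exact permutation test. Because of that choice these p values describe the pairs and are no independent support. How often the ratios of other gene pairs lie apart was not computed. The ratio of C1s to C1ra shifted by a mean of -0.41 on Illumina and -0.36 on Ion Torrent. C4b to C2 shifted by 1.25 and 0.98, and Cfb to C2 by 1.27 and 1.14. Mbl1 to Mbl2 shifted by 0.79 and 0.70, Cpn2 to Cpn1 by -0.89 and -0.77, and C5ar1 to C3ar1 by 2.17 and 1.23. In the Ion Torrent STAR table the groups overlapped for C5ar1 to C3ar1, where the lowest IL-1β ratio was -0.66 and the highest untreated ratio -0.52 (shift 1.23, exact permutation test, adjusted p = 0.0357). The remaining pairs overlapped on Illumina, with mean shifts of 0.070 for Masp2 to Masp1, -0.12 for C8b to C8a and 0.11 for C8g to C8a (exact permutation test, adjusted p from 0.327 to 0.516). On Ion Torrent these shifts were 0.093, -0.10 and 0.090.

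**Figure D5:**
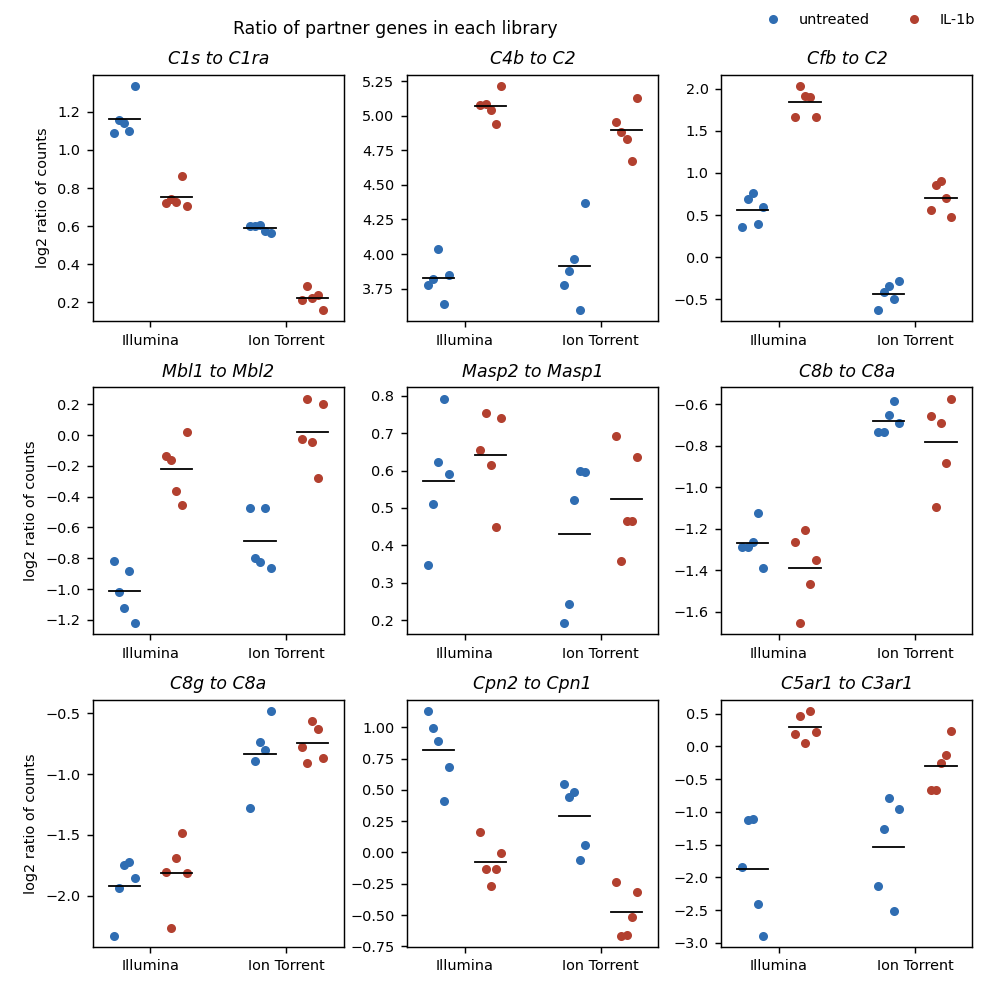
Log2 ratio of the counts of 9 pairs of partner genes in each library (y axis) for the GSNAP tables of both platforms (x axis), with lines at the means of the untreated and IL-1β groups, 5 mice each. The groups are apart on both platforms for 6 pairs and overlap for Masp2 to Masp1, C8b to C8a and C8g to C8a.

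Whether the change differed between platforms was tested as an interaction of platform and treatment, for each aligner over its 20 libraries, in an edgeR model that held each mouse as a block. No gene of the list was called with any aligner, where 0.0642% of all genes were called for GSNAP, 0.00642% for STAR and 0.077% for STAR + Bowtie2. In that order, the smallest adjusted p in the list was 0.339, 0.653 and 0.451. At an unadjusted p below 0.05 there were 6 genes with each aligner, beside 7.80%, 6.997% and 7.77% of all genes in the same order. With GSNAP the 6 were C3, C4b, Vtn, Clu, Cpn1 and C5ar1, each with a lower log2 fold change on Ion Torrent. With STAR and with STAR + Bowtie2, 5 of the 6 were lower on Ion Torrent. The sixth was Cd59a, with a difference of 0.22 (unadjusted p = 0.0491) and 0.23 (unadjusted p = 0.0336), in place of C5ar1. The difference of log2 fold changes, Ion Torrent minus Illumina, was -0.24 ± 0.062 for C3 (edgeR, unadjusted p = 0.000804) and -0.97 ± 0.39 for C5ar1 (unadjusted p = 0.0203). Without the block, 1 of the 36 genes had an unadjusted p below 0.05 with GSNAP, and 0 were called. Without mouse UNT_9584, C3 was called with STAR (difference -0.21, edgeR adjusted p = 0.0152).

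A further 28 complement genes outside the list were looked up, of which 22 could be tested, and 6 were called higher and 7 lower in all 6 tables, against 17.3% and 17.6% of all genes tested. Apcs and Crp, pentraxins that bind C1q, rose by 3.54 ± 0.16 and 2.61 ± 0.14 on the log2 scale on Illumina. Itgam, a chain of complement receptor 3 on leukocytes, rose by 3.22 ± 0.27, and Cd93, once described as a C1q receptor, by 1.64 ± 0.15. Cpb2, a plasma carboxypeptidase, rose by 0.80 ± 0.10. The collectins Colec10 and Colec12 fell by 1.399 ± 0.15 and 1.702 ± 0.16. Vsig4, the complement receptor of Kupffer cells, fell by 0.95 ± 0.24, Susd4 by 0.81 ± 0.20 and C1qbp by 0.37 ± 0.097.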

How the data were processed

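Poly-A RNA of 10 livers was sequenced on Illumina and Ion Torrent. Per the labels and the study's methods, the authors aligned reads to mm9 with GSNAP, STAR 2.5.1b, or STAR 2.5.1b with Bowtie2 2.2.9, re-sampled them to like depth with PORT, and deposited the whole-number counts per gene after that re-sampling. Whether a count is a read or a read pair is not given in the sources used here. All 60 columns were used, as 6 tables of 10 libraries. Groups came from the labels. Genes with 5 reads in at least 5 libraries of any table were kept. Each table was fitted in R 4.3.3 with edgeR 4.0.16 (TMM factors 0.9197 to 1.104, quasi-likelihood test, Benjamini-Hochberg adjustment). Standard errors were taken from the fold change and its F statistic. Platforms were compared with a term blocked by mouse, whose libraries come from the same animal. Marker sums and pair ratios (with 0.5 added to counts) were compared by exact permutation in scipy 1.17.1. Alternatives were a rank-sum test on counts without TMM, DESeq2 1.42.0, limma-voom (limma 3.58.1), no TMM, other detection filters and leaving out each mouse. Those for the pairs were partly added after seeing the data. Simulated Illumina GSNAP counts held 15578 genes, with 200 changed by 1 on the log2 scale. Of these, edgeR recovered 200 with 7 false calls, limma-voom 190 with 3, DESeq2 200 with 16 and the rank-sum test 0. The changed genes were drawn from those with higher mean counts, and all genes had the same dispersion. The recovery therefore does not carry over to genes of low count such as Cfd, C7, C5ar1 and C3ar1. The rank-sum result was fixed by the setting and says nothing of its power in the measured counts. With 5 mice a group its exact p cannot fall below 0.00794, too high for 200 changed genes of 15578 to pass the adjustment. The platform term recovered 185 with GSNAP, with 8 false calls. Counts limit precision through depth, which is given with the results. Positions and exonic lengths came from an mm9 annotation that held 37310 of 37681 identifiers, and related genes from BLAST+ 2.17.0. Genes with full values by mouse were C3, Colec11 and C5ar1, with absolute log2 fold changes above 1 in the Illumina GSNAP table and calls in all tables, and those whose call differed between tables. The members, pairs and lists were chosen with earlier results of these data known. Some of the further complement genes counted are not reported here by name.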

Additional observations from a re-analysis of the deposited data

Results flagged for a closer look

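In 14 of 144 groups of 5 mice, 36 genes on 2 platforms aligned with GSNAP, 1 mouse lay farther from the others than Dixon's 95% critical value allows. Chance alone does so in about 1 in 20 groups. Mouse ILB_9583 accounted for 4 of them, UNT_9574 for 3, ILB_9578, UNT_9580 and UNT_9584 for 2 each and ILB_9579 for 1. Values in the Illumina tables come first. C4bp was highest in untreated mouse UNT_9584 at 769 CPM (others 581 to 597). Serping1 was highest in IL-1β mouse ILB_9583 at 1109 CPM (others 1029 to 1051). Cd55 was highest in IL-1β mouse ILB_9578 at 21.2 CPM (others 8.61 to 11.2). Cd59a was lowest in IL-1β mouse ILB_9583 at 25.5 CPM (others 30.5 to 32.01). Vtn was highest in IL-1β mouse ILB_9583 at 3498 CPM (others 2973 to 3043). Clu was highest in IL-1β mouse ILB_9583 at 1960 CPM (others 1756 to 1788). On Ion Torrent there were 8. C1qa was highest in untreated mouse UNT_9574 at 31.9 CPM (others 27.8 to 28.8). C1qb was lowest in IL-1β mouse ILB_9579 at 19.8 CPM (others 34.3 to 40.2). C1qc was highest in untreated mouse UNT_9574 at 42.6 CPM (others 31.4 to 33.8). C4b was highest in untreated mouse UNT_9584 at 1692 CPM (others 1423 to 1497). C3 was lowest in untreated mouse UNT_9580 at 6901 CPM (others 7986 to 8410). Cfp was highest in untreated mouse UNT_9574 at 18.2 CPM (others 11.6 to 13.2). Cd55 was highest in IL-1β mouse ILB_9578 at 14.9 CPM (others 4.07 to 6.68). Cpn2 was lowest in untreated mouse UNT_9580 at 394 CPM (others 458 to 481). Cd55 in mouse ILB_9578 stood apart on both platforms.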

How the results depend on the processing

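Over the 102 fits of each gene, no call turned to the opposite direction, and each log2 fold change that changed sign passed the test in neither setting. The rank-sum setting also left out TMM scaling, and its fold change is the ratio of mean counts. Its sign changes therefore cannot be credited to the choice of test alone. With the rank-sum test the log2 fold changes that changed sign were C1qb -0.066 (Illumina GSNAP), -0.021 (Illumina STAR), -0.11 (Ion Torrent GSNAP), -0.077 (Ion Torrent STAR) and -0.11 (Ion Torrent STAR + Bowtie2), C1ra -0.11 (Illumina GSNAP), -0.091 (Illumina STAR), -0.065 (Illumina STAR + Bowtie2), -0.063 (Ion Torrent GSNAP), -0.050 (Ion Torrent STAR) and -0.056 (Ion Torrent STAR + Bowtie2), C1qa -0.15 (Illumina STAR) and -0.15 (Illumina STAR + Bowtie2). Without TMM the log2 fold changes that changed sign were C1qb -0.017 (Illumina GSNAP), -0.072 (Ion Torrent GSNAP), -0.034 (Ion Torrent STAR) and -0.069 (Ion Torrent STAR + Bowtie2), C1ra -0.058 (Illumina GSNAP), -0.043 (Illumina STAR), -0.019 (Illumina STAR + Bowtie2), -0.020 (Ion Torrent GSNAP), -0.00691 (Ion Torrent STAR) and -0.017 (Ion Torrent STAR + Bowtie2), C1qa -0.099 (Illumina STAR) and -0.10 (Illumina STAR + Bowtie2). With limma-voom the log2 fold changes that changed sign were Cfd -0.00618 (Illumina GSNAP), -0.30 (Illumina STAR), -0.27 (Ion Torrent GSNAP) and -0.22 (Ion Torrent STAR), C1qa -0.015 (Illumina STAR + Bowtie2), C1qb -9.75e-05 (Ion Torrent STAR + Bowtie2). Cpn1 was at 0.000885 in Ion Torrent STAR when genes had to be detected in that table. Leaving out 1 mouse at a time, C1qa ran from -0.20 to 0.13 (Illumina GSNAP), -0.17 to 0.20 (Illumina STAR), -0.15 to 0.15 (Illumina STAR + Bowtie2), -0.17 to 0.066 (Ion Torrent GSNAP), -0.17 to 0.049 (Ion Torrent STAR) and -0.16 to 0.081 (Ion Torrent STAR + Bowtie2). C1qb ran from -0.023 to 0.22 (Illumina GSNAP), -0.039 to 0.17 (Ion Torrent GSNAP) and -0.060 to 0.17 (Ion Torrent STAR + Bowtie2). Cfd ran from -0.41 to 0.76 (Illumina GSNAP), -0.15 to 0.82 (Illumina STAR), -0.12 to 1.04 (Illumina STAR + Bowtie2), -0.54 to 0.54 (Ion Torrent GSNAP), -0.52 to 0.60 (Ion Torrent STAR) and -0.44 to 0.75 (Ion Torrent STAR + Bowtie2). Cd55 ran from -0.12 to 0.27 (Illumina GSNAP), -0.017 to 0.31 (Illumina STAR), -0.059 to 0.31 (Illumina STAR + Bowtie2), -0.19 to 0.40 (Ion Torrent GSNAP), -0.14 to 0.47 (Ion Torrent STAR) and -0.19 to 0.41 (Ion Torrent STAR + Bowtie2). Cpn1 ran from -0.11 to 0.024 (Ion Torrent GSNAP), -0.076 to 0.043 (Ion Torrent STAR) and -0.12 to 0.034 (Ion Torrent STAR + Bowtie2). In Ion Torrent STAR, leaving out 1 mouse gave 6 to 11 of the 36 genes called lower, with 6 without mouse ILB_9582 or UNT_9580, beside 12 with all mice. The share of all genes called lower in those fits is not given here, so this drop cannot be read as particular to the list. The C8g to C8a log2 ratio on Ion Torrent ran from -0.020 to 0.18. The summed stellate cell markers gave a log2 ratio of -0.22 on Ion Torrent (exact permutation test, adjusted p = 0.167). Genes with a platform call were 0 with the replicate block and 0 without it, for each aligner, and 0 to 1 with STAR when 1 mouse was left out (1 without mouse UNT_9584). Beyond the sign changes, leaving out 1 mouse lost 143 calls, gained 49 and left 1267 in place over the members and tables, and the other settings lost 33, gained 44 and left 813 in place. The same tally over all genes is not given here. Causes were not tested. Counting error weighs most for Cfd, C7, C5ar1 and C3ar1, which had the lowest mean counts of the list in all 6 tables.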
